A study of Mus musculus with 53 samples.

Results

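The regions described here carried H3K4me1 but no H3K27ac in nEnd cells, the naive extra-embryonic endoderm culture that stands for the primitive endoderm. They were defined by peak overlap: the 2 nEnd H3K4me1 peak lists were merged wherever peaks shared at least 1 bp, regions with peaks of both lists were kept, and those overlapping no peak of either nEnd H3K27ac list were selected. Of 15940 kept regions, 4517 met the rule. Another 8826 overlapped H3K27ac peaks of both libraries and are called acetylated regions, and 2597 overlapped peaks of only 1. All cells were mouse embryonic stem cells of the SGGC line, which carries a SOX2-GFP and a GATA6-mCherry reporter, or nEnd cells derived from it, and were profiled by CUT&RUN, in which an antibody directs micrococcal nuclease to a protein or mark and the released DNA is sequenced. The groups used were 2iLIF and NACL, both naive pluripotent media, nEnd, and a KOSR culture sorted into SOX2+ cells and DP cells, which express SOX2 and GATA6 together. Libraries of 2iLIF, NACL and nEnd came from clones B9 and B12, except that both nEnd H3K4me1 libraries came from clone B9, and all KOSR libraries came from clone B12 and are numbered by experiment (A, A1 and B).

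H3K4me1 is laid down at enhancers before, during and after their use, whereas H3K27ac accompanies activity. An enhancer with the first mark alone is usually called primed or poised when it has yet to be used, and decommissioned when it was used earlier. GATA6 is a zinc finger factor that drives the primitive endoderm programme and binds GATA sites. SOX2 is a high mobility group factor that, with OCT4, holds pluripotency and binds sites of the CATTGT type.

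The libraries differed in how many peaks they held, and read depth was unknown. The lists used held 1391 to 32510 peaks for GATA6, 1378 to 29623 for SOX2, 18627 to 130749 for H3K4me1 and 13514 to 401853 for H3K27ac. The nEnd label was checked against marker genes. H3K27ac peaks of both nEnd libraries lay within 5 kb of a start site of 7 of 8 primitive endoderm genes, the exception being Sox7 with 1 library, and GATA6 peaks of both lay there at all 8. Of 8 pluripotency genes, 4 (Pou5f1, Nanog, Klf4 and Zfp42) had H3K27ac of both libraries, Tfcp2l1 and Prdm14 had that of 1, and Esrrb and Sox2 had none. GATA6 of both nEnd libraries lay at 3 of these 8 (Pou5f1, Esrrb and Klf4).

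Sequences are shown first for members bound by GATA6 in all 5 GATA6 libraries (2 of nEnd, 3 of DP), of which there were 76. Each is 161 bases of GRCm38, plus strand, centred on the strongest GATA6 maximum in the region and named by the nearest protein-coding gene. Capitals mark AGATAA or TGATAA on either strand. The Lhx1, Runx1 and Eps8 windows are intergenic, and the Esrrb and Sesn1 windows lie in introns of those genes.
Lhx1, chr11:84604616-84604776: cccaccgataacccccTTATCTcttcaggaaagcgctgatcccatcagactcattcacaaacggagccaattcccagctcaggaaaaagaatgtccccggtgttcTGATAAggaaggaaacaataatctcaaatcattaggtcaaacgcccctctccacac
Runx1, chr16:92594942-92595102: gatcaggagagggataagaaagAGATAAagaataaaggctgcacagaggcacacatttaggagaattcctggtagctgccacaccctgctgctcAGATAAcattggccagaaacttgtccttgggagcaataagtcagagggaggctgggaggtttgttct
Esrrb, chr12:86480745-86480905: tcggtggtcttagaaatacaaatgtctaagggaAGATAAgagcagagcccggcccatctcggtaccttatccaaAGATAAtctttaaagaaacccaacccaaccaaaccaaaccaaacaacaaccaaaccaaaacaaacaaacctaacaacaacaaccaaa
Eps8, chr6:137693617-137693777: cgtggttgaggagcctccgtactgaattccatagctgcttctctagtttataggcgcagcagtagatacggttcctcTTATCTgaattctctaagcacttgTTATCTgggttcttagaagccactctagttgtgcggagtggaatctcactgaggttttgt
Sesn1, chr10:41894635-41894795: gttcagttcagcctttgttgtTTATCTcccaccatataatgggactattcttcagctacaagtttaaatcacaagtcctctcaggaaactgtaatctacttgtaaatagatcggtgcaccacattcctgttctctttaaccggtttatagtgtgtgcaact

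The next 3 come from the 131 members that carried H3K27ac in all 6 and SOX2 in at least 5 of 7 pluripotent libraries, a term used here for those of SOX2+, NACL and 2iLIF cells. They are centred on the strongest SOX2 maximum, with capitals at CATTGT or CTTTGT on either strand. Of the 9 SOX2 windows read for this set, 3 (Mcph1, Slc25a13 and Esrrb) held neither string and are not printed. The Tet2 window lies in an intron of Tet2, and the other two are intergenic.
Tet2, chr3:133524736-133524896: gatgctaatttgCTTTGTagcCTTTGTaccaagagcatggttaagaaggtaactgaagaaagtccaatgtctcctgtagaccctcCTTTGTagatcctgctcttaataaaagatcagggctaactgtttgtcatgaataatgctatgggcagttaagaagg
Klf13, chr7:63957159-63957319: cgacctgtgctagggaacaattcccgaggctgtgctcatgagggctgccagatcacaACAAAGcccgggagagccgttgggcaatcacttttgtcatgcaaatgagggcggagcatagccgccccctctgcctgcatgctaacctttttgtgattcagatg
Cdh9, chr15:16629880-16630040: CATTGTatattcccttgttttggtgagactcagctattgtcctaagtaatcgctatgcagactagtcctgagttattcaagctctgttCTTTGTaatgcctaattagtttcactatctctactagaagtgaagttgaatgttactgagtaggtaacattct

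These letters followed the factors' maxima. Of the 161-base windows centred on nEnd GATA6 maxima inside members, 84.7% (of 1286, B9) and 79.9% (of 2097, B12) held a GATA string as marked above. At GATA6 maxima of DP cells the share was 86.6 to 93.6% in the 3 libraries. Windows of the same length at the H3K4me1 maximum held it in 31.7% of members and in 28.7% of all kept regions. At nEnd GATA6 maxima in acetylated regions it was 71.1% and 67.1%, lower than at members in both libraries. The marked SOX strings were found at 55.6 to 60.9% of SOX2 maxima of the 7 pluripotent libraries at members, at 59.9 to 69.6% of those at acetylated regions, and in 29.3% of all kept regions at their H3K4me1 maximum. Both strands were searched, no match counts under more than 1 string, and a match is a description and not a tested site.

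Members were narrower than acetylated regions and farther from start sites. Their median width was 3440 bp (quartiles 2645 and 4799 bp) against 6378 bp in acetylated regions and 4415 bp in those with H3K27ac of 1 library. The H3K4me1 maximum lay a median of 19940 bp from the nearest start site of a protein-coding gene, against 7890 bp in acetylated regions. In 3039 members (67.3%) that distance was over 10 kb, a background of 53.3% over all kept regions, and in 730 (16.2%) it was over 100 kb (background 9.03%). Only 318 members (7.04%) had their maximum within 1 kb of any annotated start site (background 8.39%), and 612 (13.5%) covered one (background 23.1%). The maximum lay in an intron in 2221 members (49.2%, background 59.1%), between genes in 2104 (46.6%, background 35.2%) and in an exon in 192 (4.25%, background 5.67%). The cumulative plots of width and distance show the order of the classes. Base composition did not follow it: the median GC content of the 1 kb around the maximum was 45% in members and 45.1% in acetylated regions, and the median share of repeat-masked bases was 17.9% and 18.1%.

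**Figure D1:**
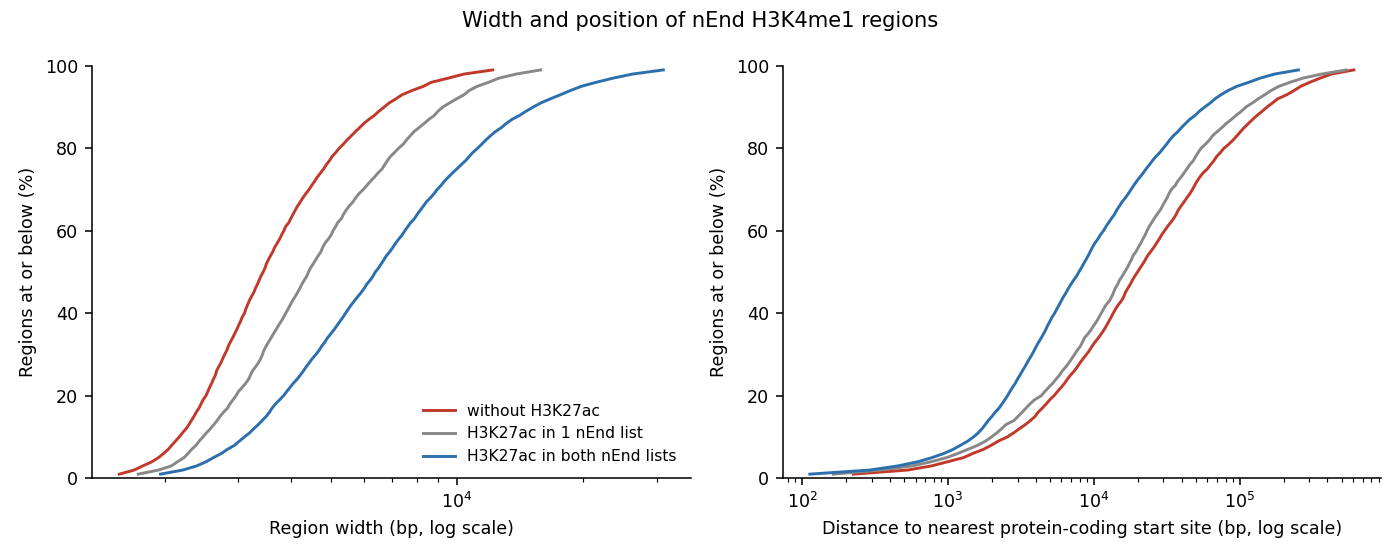
Cumulative share of nEnd H3K4me1 regions (y axis, percent) by region width (left) and by distance from the H3K4me1 maximum to the nearest protein-coding start site (right), both on log axes in bp. Regions without H3K27ac (red, 4517) are narrowest (median 3440 bp) and farthest out (median 19940 bp), regions with H3K27ac in both lists (blue, 8826) widest and closest, and those with 1 list (grey, 2597) lie between.

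The H3K4me1 of members was also lower. The level of a region was taken as the smaller of its strongest peak's percentiles of max signal within each of the 2 lists, and the median level was 33.8 in members, 45.1 in regions with H3K27ac of 1 library and 55.8 in acetylated regions. The nearest nEnd H3K27ac peak lay a median of 15229 bp from the edge of a member. It was within 1 kb of 286 members (6.33%) and over 100 kb away from 606 (13.4%). The rule therefore has a close edge for few members. The nearest misses inside were a 2652 bp region near Ipo11 and a 3621 bp region near Gabarapl1, each 1 bp from its closest H3K27ac peak. Just outside were regions near Lrrc23 and Tpcn2 with 7 bp under an H3K27ac peak. In all, 39 members had an H3K27ac peak within 100 bp, and 18 regions left out had fewer than 100 bp under one. Of the regions with H3K27ac of 1 library, 1755 had the B12 peak and 842 the B9 peak.

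GATA6 occupied a minority of members in nEnd. A GATA6 peak overlapped 26.3% of members in clone B9 (95% interval 25 to 27.6%) and 39.4% in clone B12 (38.0 to 40.8%), against 64.9% and 72.8% of acetylated regions and a background over all kept regions of 50.4% and 61.1%. Both libraries had a peak in 1100 members (24.4%), where the background was 47.6%, and neither had one in 2651 (58.7%, background 36.1%). In DP cells, GATA6 peaks overlapped 12.6% of members in experiment A, 7.31% in A1 and 2.37% in B (background 17.3%, 10.3% and 3.94%), an order that follows the number of peaks in these lists (8316, 3821 and 1391). At least 2 DP libraries shared a member in 315 cases (6.97%, background 9.79%). Of the 1100 members with GATA6 in both nEnd libraries, 221 (20.1%) also had it in at least 2 DP libraries, against 971 of 5469 such acetylated regions (17.8%). GATA6 in at least 2 DP and no nEnd library was found at 30 members (0.664%, background 0.301%), and GATA6 was absent from all 5 lists at 2527 (55.9%, background 34.8%).

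Because members were narrower, the comparison with acetylated regions was made in a 1 kb window centred on each region's H3K4me1 maximum. In nEnd the share of windows with a GATA6 peak was 18.9% at members and 37.1% at acetylated regions in B9, and 29.3% and 45.2% in B12. In DP cells it was 8.19% and 6.74% in experiment A, 4.69% and 3.73% in A1, and 1.51% and 1.21% in B. Over all kept regions these windows gave 30.7% and 40% in nEnd and 7.42%, 4.15% and 1.39% in DP cells. Members were thus lower in both nEnd libraries, with a difference of -17 percentage points ± 1.68 (SD, n = 2), and higher in the 3 DP libraries, by 0.903 ± 0.581 (SD, n = 3). Over all 5 libraries the difference was -6.27 points ± 9.87 (SD), which did not pass the test (exact sign-flip test, two-sided, p = 0.5, adjusted p = 0.5 over 6 tests; the smallest p that 5 libraries allow is 0.0625). Over whole regions all 5 libraries were lower at members (-17.4 points, exact p = 0.0625), and with equal peak numbers in all 5 lists the difference was -0.820 points (exact p = 0.5).

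**Figure D2:**
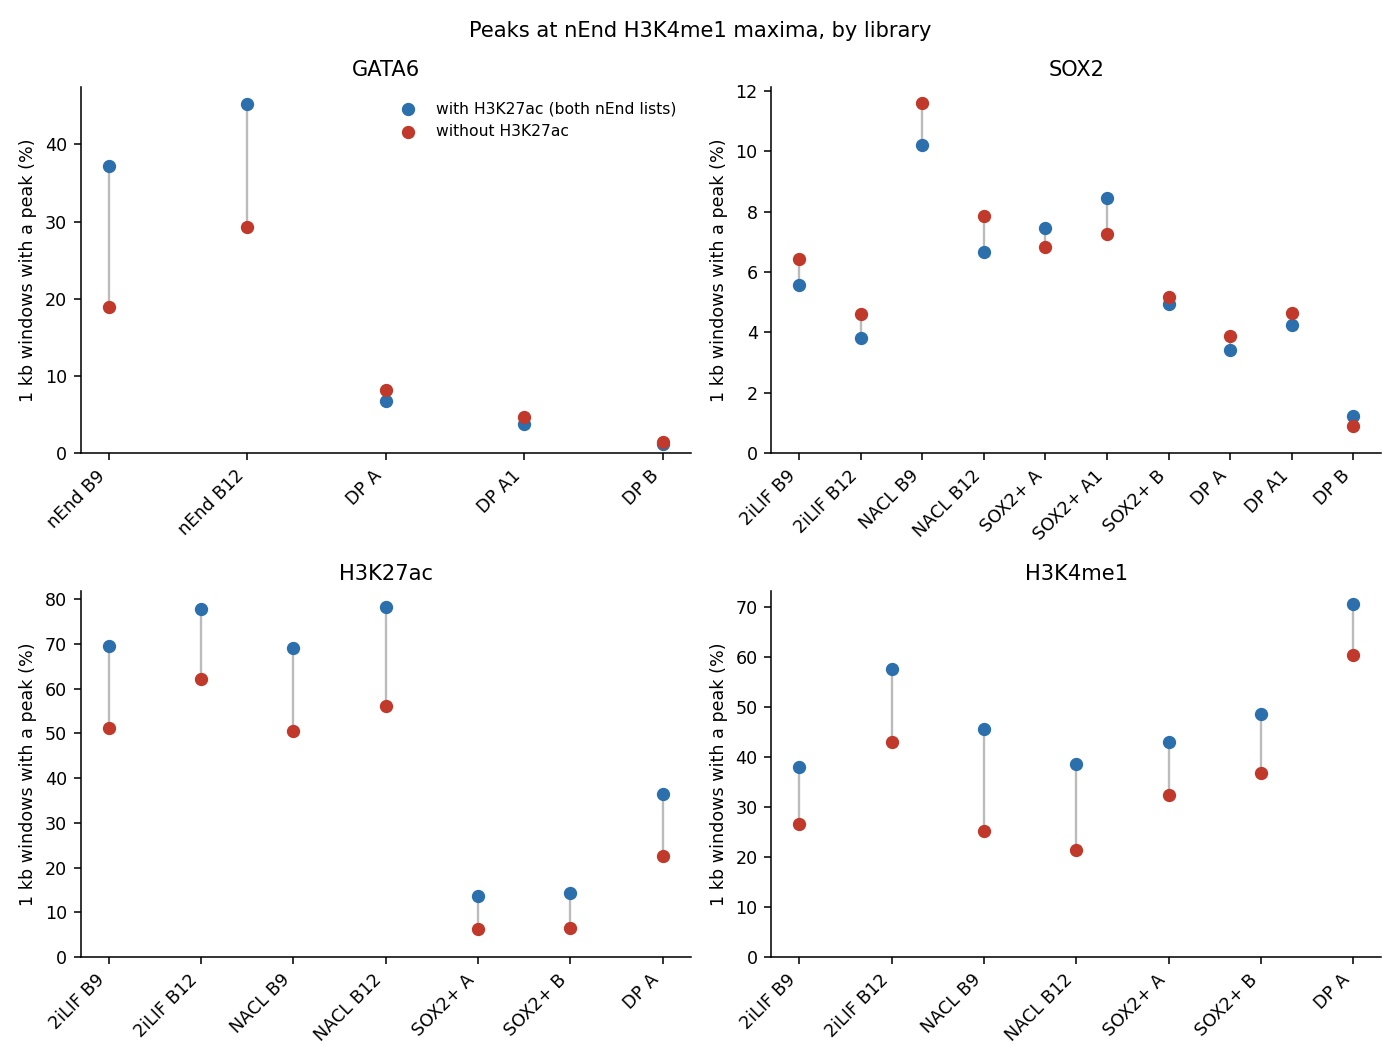
Share of 1 kb windows at the nEnd H3K4me1 maximum that hold a peak (y axis, percent) in each library (x axis), for GATA6, SOX2, H3K27ac and H3K4me1. Red points are regions without nEnd H3K27ac and blue points acetylated regions, joined within a library; red lies below blue in every H3K27ac and H3K4me1 library and in both nEnd GATA6 libraries, and above it in the 3 DP GATA6 and the 4 naive SOX2 libraries.

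The position of the GATA6 maxima differed in the flanks. In the 250 bp to the left of the H3K4me1 maximum there were 5.89 (B9) and 9.56 (B12) nEnd GATA6 maxima per 100 members, and 11.3 and 13.8 per 100 acetylated regions. Between 1500 and 1750 bp to the right of it there were 0.443 and 0.642 at members and 2.22 and 3.2 at acetylated regions. Members were narrower (median 3440 bp against 6378 bp), so that a bin this far out can fall beyond the edge of a member. The part of width in the flank difference was not tested. The profile of maxima shows the same narrow summit at members in DP cells, where 2.59 maxima of experiment A per 100 members lay in the 250 bp to the left, against 2.19 per 100 acetylated regions. Per kb of whole region, members held 0.0703 and 0.115 nEnd GATA6 peaks and acetylated regions 0.133 and 0.179, whereas in DP cells the values were 0.0347 and 0.0313 (A), 0.0191 and 0.0179 (A1) and 0.00600 and 0.00670 (B).

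**Figure D3:**
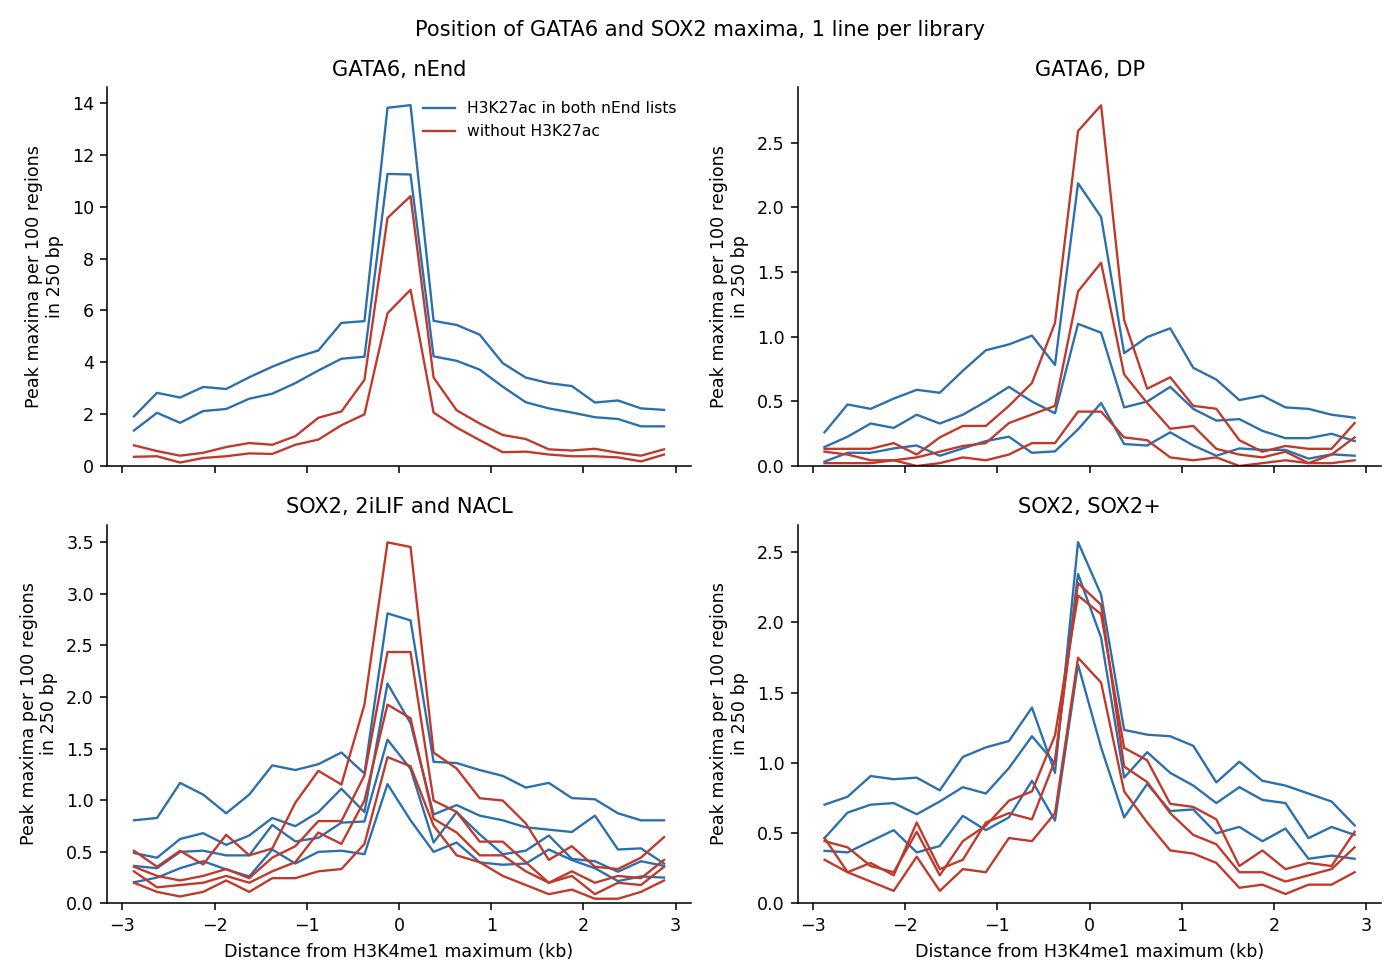
Number of GATA6 or SOX2 peak maxima per 100 regions (y axis) in 250 bp steps of distance from the nEnd H3K4me1 maximum (x axis, kb), with 1 line per library. At regions without H3K27ac (red) the maxima gather within 250 bp and fall quickly to the sides. At acetylated regions (blue) the flanks are higher, and in nEnd GATA6 the summit is too. The red regions are narrower (median 3440 bp against 6378 bp), and the part of width in the flanks was not tested.

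A second view asks where a factor's peaks lie among the kept H3K4me1 regions. Members held 17.6% of the bases of the kept regions. Of the GATA6 peaks at kept regions, 10.5% (1289 of 12245, B9) and 12.2% (2101 of 17168, B12) lay at members in nEnd. In DP cells the share was 18.8% (635 of 3369) in A, 18.5% (350 of 1896) in A1 and 16% (110 of 688) in B. The DP libraries were all higher than the nEnd libraries and close to the share of bases, with means of 17.8% ± 1.55 (SD, n = 3) and 11.4% ± 1.21 (SD, n = 2). The difference was 6.38 points, and with 3 libraries against 2 its exact permutation p of 0.2 is the smallest possible (adjusted p = 0.3). With equal peak numbers in all 5 lists it was 12.6 points, and as a share of all peaks of a library 2.34 points.

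SOX2 of pluripotent cells was found at fewer than 20% of members in any library. In 2iLIF, SOX2 peaks overlapped 10.8% (B9) and 7.42% (B12) of members, with backgrounds of 15% and 10.6%. NACL gave 19.3% and 13% (background 25.7% and 17.9%). The SOX2+ libraries gave 11.8% (A), 13% (A1) and 8.61% (B), with backgrounds of 18.1%, 20.2% and 13%. In DP cells the shares were 6.09%, 6.77% and 1.51% (background 9.72%, 11% and 3.12%). At least 1 of the 7 pluripotent libraries had a peak at 1012 members (22.4%, background 31.1%), at least 5 at 395 (8.74%, background 12.7%) and all 7 at 238 (5.27%, background 7.73%). At least 2 DP libraries had SOX2 at 221 members (4.89%, background 8.24%), and at 94 (2.08%, background 3.93%) at least 2 DP libraries had SOX2 and at least 2 had GATA6.

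In the 1 kb window, members and acetylated regions were close in SOX2. In 2iLIF the shares were 6.42% and 5.56% (B9) and 4.60% and 3.83% (B12), and in NACL 11.6% and 10.2% (B9) and 7.84% and 6.67% (B12), so that members were higher in all 4 naive libraries. In SOX2+ cells members were lower in A (6.82% and 7.44%) and A1 (7.26% and 8.44%) and higher in B (5.16% and 4.95%). The backgrounds of these windows were 6.17% and 4.32% for 2iLIF, 11% and 7.31% for NACL, and 7.41%, 8.12% and 5.18% for SOX2+ cells. In DP cells members and acetylated regions gave 3.9% and 3.42% (A), 4.63% and 4.24% (A1) and 0.886% and 1.22% (B), with backgrounds of 3.74%, 4.55% and 1.19%. The mean difference over the 7 pluripotent libraries was 0.370 points ± 0.957 (SD) and did not pass the test (exact sign-flip test, p = 0.328, adjusted p = 0.394). Over whole regions, which are wider in the acetylated class, it was -8.10 points (exact p = 0.0156). Per kb of region, members held 0.0301 and acetylated regions 0.0264 SOX2 peaks in 2iLIF B9, and 0.0385 and 0.0437 in SOX2+ A1.

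Of the SOX2 peaks at kept regions, members held 18.9% (2iLIF B9), 18.6% (2iLIF B12), 19.1% (NACL B9) and 19% (NACL B12). The SOX2+ libraries gave 16.7%, 15.8% and 17.5%, and the DP libraries 16.3%, 15.8% and 12.8%. The naive libraries were above the share of bases and the KOSR libraries below it. DP was lower than the pluripotent libraries by 2.97 points, with means of 15% ± 1.86 (SD, n = 3) and 17.9% ± 1.31 (SD, n = 7) (exact permutation test, p = 0.05, adjusted p = 0.1, which did not pass). Experiment B held the lowest DP value and the shortest list; without it the difference was -1.90 points (exact permutation p = 0.167), and with equal peak numbers -0.723 (exact permutation p = 0.517).

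**Figure D4:**
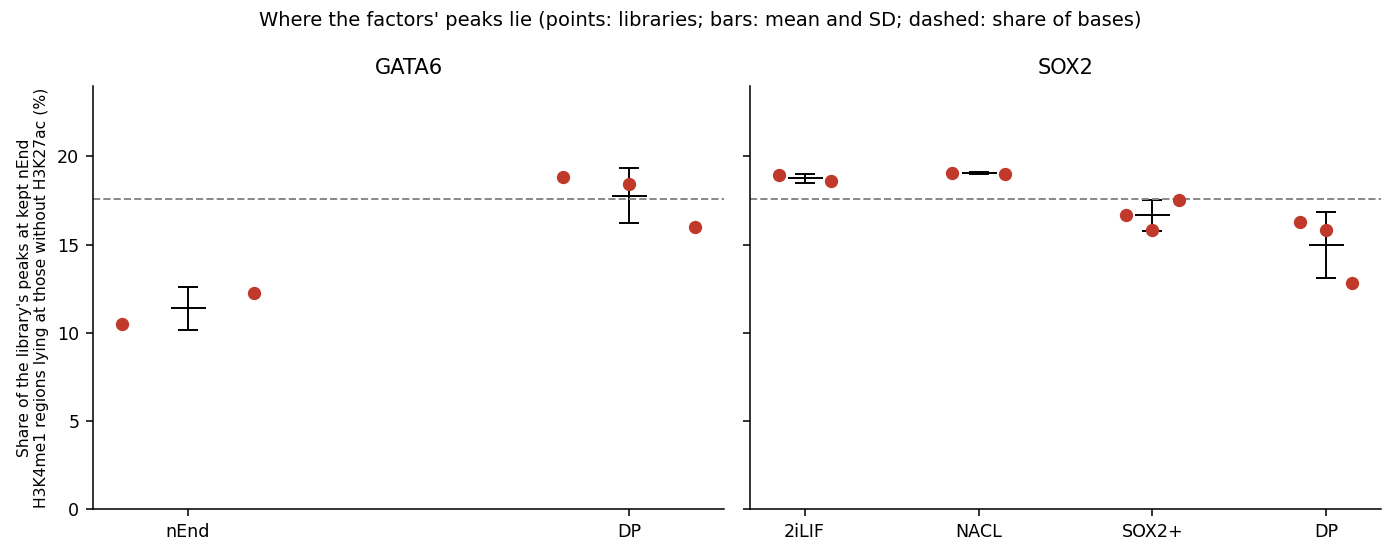
Share of a library's GATA6 (left) or SOX2 (right) peaks at kept nEnd H3K4me1 regions that lay at regions without H3K27ac (y axis, percent), with 1 point per library and bars for the mean and SD. The dashed line is their share of bases, 17.6%; nEnd GATA6 lies below it (10.5 and 12.2%), the 4 naive SOX2 libraries above it (18.6 to 19.1%).

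GATA6 of both nEnd libraries was found at a minority of the members that SOX2 occupied in pluripotent cells, as of all members (24.4%). Of the 395 members with SOX2 in at least 5 of 7 pluripotent libraries, 75 (19%) had GATA6 in both nEnd libraries. The share was 957 of 1319 such acetylated regions (72.6%) and 1156 of 2032 such regions among all kept (56.9%). Among regions with SOX2 in none of the 7, the shares were 878 of 3505 members (25%) and 3299 of 5636 acetylated regions (58.5%). Over all kept regions without SOX2 it was 4898 of 10976 (44.6%). SOX2 was found again in at least 2 DP libraries at 147 of the 395 (37.2%), and at 664 of the 1319 acetylated regions (50.3%). Over the 2032 kept regions it was 971 (47.8%). H3K27ac of all 4 naive libraries covered 362 of the 395 (91.6%), compared with 1208 of the 3505 members with no SOX2 (34.5%). With and without SOX2, the shares were 94.2% and 68.9% of acetylated regions, and 93.5% and 54.3% of all kept regions. These counts describe regions of different width and were not tested.

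H3K27ac of naive cells was found at most members. In 2iLIF, peaks overlapped 63.7% (B9) and 75.2% (B12) of members, with backgrounds of 77.6% and 85.3%. NACL gave 60.5% and 67.3% (background 75.8% and 82.4%). The SOX2+ libraries gave 7.68% (A) and 8.5% (B), with backgrounds of 19.8% and 20.2%, and the DP library 31.3% (background 50.5%). The 4 naive lists alone covered 13.2 to 21.6% of the genome and the SOX2+ lists 0.960% and 1.05%, so that the naive and SOX2+ shares cannot be compared as they stand. All 4 naive libraries had H3K27ac at 2022 members (44.8%, background 64.5%), all 6 pluripotent libraries at 259 (5.73%, background 15.4%) and none of the 6 at 552 (12.2%, background 6.15%).

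In the 1 kb window, all 6 pluripotent libraries had H3K27ac at a lower share of members than of acetylated regions. The shares were 51.3% and 69.6% in 2iLIF B9, 62.1% and 77.7% in 2iLIF B12, 50.5% and 69.0% in NACL B9, 56.1% and 78.2% in NACL B12, 6.22% and 13.6% in SOX2+ A and 6.51% and 14.3% in SOX2+ B, each time the lower at members. The backgrounds were 62.8%, 71.7%, 61.9%, 70%, 10.8% and 11.4% in the same order. The difference was -15 points ± 6.08 (SD, n = 6) (exact sign-flip test, p = 0.03125, the smallest that 6 libraries allow; adjusted p = 0.0938, which did not pass). By the position of the H3K27ac maxima alone the difference was 0.233 points.

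H3K4me1 of pluripotent cells covered fewer than 50% of members in each library. In 2iLIF it overlapped 31.3% (B9) and 48.2% (B12), with backgrounds of 42.9% and 60.5%, and in NACL 29.5% and 25.5% (background 46.3% and 39.6%). The SOX2+ libraries gave 39.6% (A) and 45.4% (B), with backgrounds of 54.8% and 61%, and the DP library 70.0% (background 80.9%). All 6 pluripotent libraries carried it at 735 members (16.3%, background 28.6%) and none did at 1810 (40.1%, background 26.9%). In the window, members were lower than acetylated regions in all 6 libraries, with a difference of -14.3 points ± 3.84 (SD, n = 6), with 25.2% against 45.6% in NACL B9 at one end and 32.5% against 43.1% in SOX2+ A at the other (exact sign-flip test, p = 0.03125, adjusted p = 0.0938, which did not pass). The window backgrounds were 33.6% and 51.6% (2iLIF), 37.5% and 31.5% (NACL), and 39% and 44% (SOX2+). By peaks per kb of whole region, the mean difference was -0.0106 (exact p = 0.156) for H3K4me1 and -0.00833 (exact p = 0.312) for H3K27ac. Per kb, H3K27ac peaks at members and acetylated regions numbered 0.256 and 0.251 (2iLIF), 0.2107 and 0.2109 (NACL), and 0.0231 and 0.0532 (SOX2+), as means of 2 libraries.

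Members differed widely in their marks in pluripotent cells. In 712 of them (15.8%, background 28.4%) H3K4me1 and H3K27ac were present in all 4 naive libraries of each, and in 404 (8.94%, background 4.43%) neither mark was present in any of the 12 pluripotent histone libraries. H3K4me1 of all 4 naive libraries with H3K27ac of none was found at a single member (background 0.0376%). The regions marked in naive media were wider than the unmarked ones, with medians of 4120 and 2858 bp, and closer to start sites (15437 and 21818 bp).

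These groups differed in the factors they carried. GATA6 in nEnd overlapped 15.2% (B9) and 27.9% (B12) of the 712 regions marked in naive media, and 33.9% and 45% of the 404 unmarked regions, with intervals that do not overlap in either library. In DP cells the whole-region shares at marked and unmarked regions were 18% and 7.43% in experiment A, 9.55% and 5.69% in A1 and 3.09% and 1.49% in B, where the intervals overlapped in A1 and B. The marked regions were wider, and in the 1 kb window the DP shares were 10.8% and 5.2% in A, 4.78% and 4.46% in A1 and 1.69% and 1.49% in B. In nEnd the window gave 9.41% and 26.5% (B9) and 17.4% and 35.6% (B12). SOX2 overlapped 23.3 to 53.5% of the marked regions in the 7 pluripotent libraries, highest in NACL B9, and at most 0.990% of the unmarked ones. In the DP library H3K4me1 covered 99.0% of the marked and 32.2% of the unmarked regions, and H3K27ac 68.7% and 4.21%. The intervals cover counting error over regions only, and the comparison within members was not tested over samples or set beside the same groups of all kept regions.

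**Figure D5:**
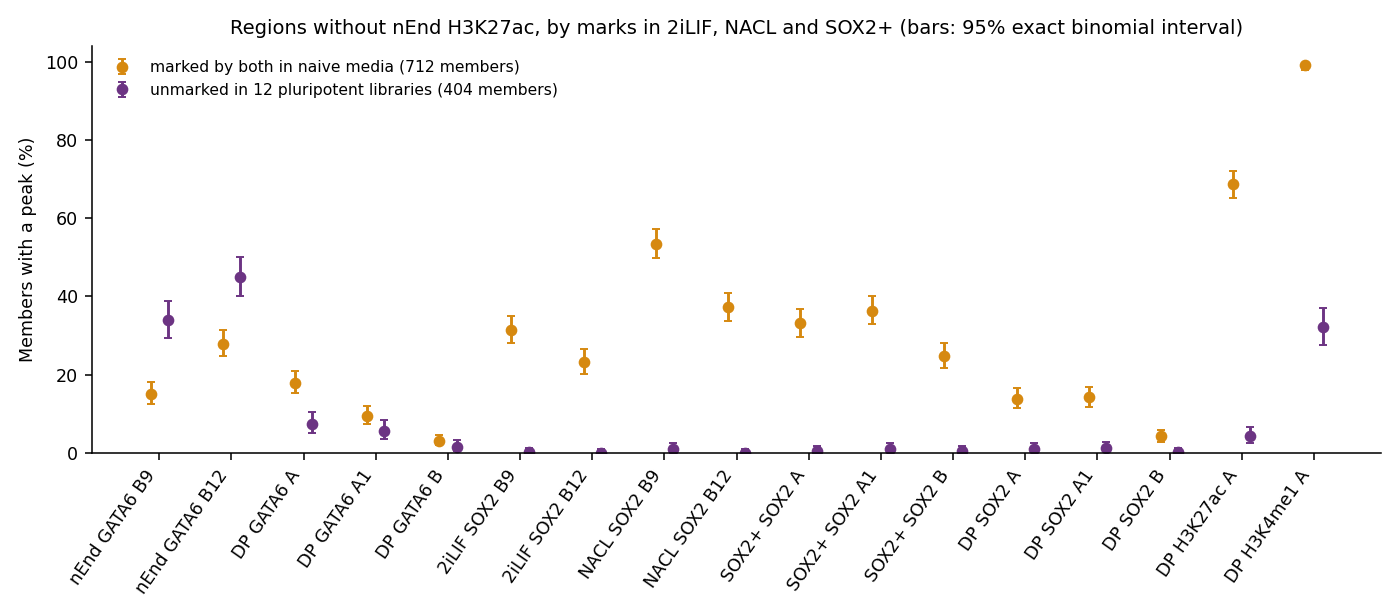
Share of regions (y axis, percent) with a peak of each GATA6, SOX2 and DP histone library (x axis), for the 712 regions with both marks in all naive libraries (orange) and the 404 with neither mark in 12 pluripotent libraries (purple). Bars are 95% exact binomial intervals; nEnd GATA6 is higher at the unmarked regions, while SOX2 and the DP marks are higher at the others.

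Members also varied with their own level and their neighbourhood. The members with the highest H3K4me1 level (percentile 55.1 and over, 1229 members) had GATA6 of both nEnd libraries in 31.7% and H3K27ac of all 4 naive libraries in 49.7%, and those with the lowest (percentile 15.4 and under, 1251 members) in 18.2% and 42.2%. Of the 606 members over 100 kb from any nEnd H3K27ac peak, 30.4% had GATA6 of both nEnd libraries and 16% had SOX2 of at least 5 pluripotent libraries. Of the 1806 with such a peak within 10 kb, 20.4% and 6.64% did. These splits were made within members only and were not compared with the same splits of all kept regions.

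At single genes, the intron of Esrrb gave a region with almost every readout except nEnd H3K27ac. Esrrb encodes an orphan nuclear receptor of the naive pluripotency network. The 14327 bp region (chr12:86470981-86485307) had H3K4me1 at percentile 84.8 and 85.4 of the 2 nEnd lists. Its strongest GATA6 peak in each library stood at percentile 97.1 (B9) and 98.6 (B12) in nEnd and at 99.6, 99.5 and 99.4 in the 3 DP libraries. H3K27ac stood at percentiles 99.1 to 99.3 in the 4 naive libraries and at 56.5 and 75 in SOX2+ cells. SOX2 was present at percentiles 37.2 in 2iLIF B9, 71.2 and 70.3 in NACL, and 47.5 and 33.3 in SOX2+ A and A1, and was absent in 2iLIF B12 and SOX2+ B. Relative to the H3K4me1 maximum, the strongest SOX2 maximum lay at -7438 bp and the GATA6 maximum printed above at 2261 bp.

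The first set was chosen for GATA6 in all 5 libraries. Of its 10 highest members, 5 had SOX2 in none of the 7 pluripotent libraries, among them the other 4 printed, and 2 had it in all 7. SOX2 was in none of the 7 at 77.6% of members (background 68.9%) and in all 7 at 5.27% (background 7.73%). The region near Lhx1, a LIM homeobox gene, is 17558 bp wide and intergenic. It had GATA6 at percentiles 92.1 and 97.1 in nEnd and 95.5, 77.5 and 45.3 in DP cells, no SOX2 in any library and H3K27ac in 2 of 6 pluripotent libraries. The region near Runx1, a runt domain factor of blood development, had GATA6 at 54.6 and 85.2 in nEnd and 92.7, 84.8 and 45.3 in DP cells, no SOX2, and H3K27ac in 1 of 6. In DP cells its H3K4me1 stood at percentile 99.9 and its H3K27ac at 97.4. The Sesn1 and Eps8 regions had H3K27ac in 4 and 2 of the 6 pluripotent libraries, and SOX2 in 2 and 1 of the 3 DP libraries.

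The second set was chosen for SOX2 and H3K27ac, and 3 of its 10 highest members had GATA6 in none of 5 libraries, against 55.9% of members and 34.8% of all kept regions. The intronic Tet2 region (chr3:133524188-133528661) had the third highest H3K4me1 level of all members, at percentile 99.7 and 99.4. Tet2 encodes a 5-methylcytosine oxidase. Its SOX2 peaks stood at percentiles 92.5 and 90.7 for 2iLIF, 93.8 and 67.0 for NACL, and 67.2, 66.7 and 57.3 for SOX2+ cells, with none in DP cells. H3K27ac stood at 98.2 to 99.4 in naive media, and GATA6 was absent from all 5 lists. The 3530 bp region near Klf13, a Krüppel-like factor gene, had SOX2 at percentiles 96.3 to 99.1 in all 7 pluripotent libraries and 96.0 to 98.8 in the 3 DP libraries, and no GATA6. The region near Cdh9, a cadherin gene, had SOX2 in all 10 libraries at 92.8 to 99.3 and GATA6 at 18.6 and 13.3 in DP experiments A and A1 only.

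Each region was assigned to a gene by the nearest protein-coding start site within 100 kb. A member was nearest to 2569 of 21911 protein-coding genes (11.7%) and an acetylated region to 4664 (21.3%), and 1458 genes (6.65%) had a member but no acetylated region. Most of the 2569 had few: 1830 had 1 member and 461 had 2. Over all genes, members made up 26.1% of the kept regions assigned.

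Pluripotency genes had members often. Of 28 listed genes 16 (57.1%) had a member and 16 an acetylated region, 8 had a member and no acetylated region, and members made up 39.2% of the kept regions assigned to the list. Tet2 and Klf4 had 4 members each beside 3 acetylated regions, and Tbx3, a T-box factor, 3 members beside 4.

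Of the regions assigned to formative and primed epiblast genes, 16 (61.5%) were members, at 7 of 17 genes. Etv5, an ETS factor downstream of FGF signalling, had 6 members and no acetylated region. All 6 of these had H3K27ac in at least 4 of 6 pluripotent libraries, 3 had SOX2 in at least 5 of 7, and none had GATA6 in both nEnd libraries. Of all 4517 members, 1577, 198 and 259 had H3K27ac in 4, 5 and 6 of these libraries. Such SOX2 was at 8.74% of members (background 12.7%) and such GATA6 at 24.4% (background 47.6%). Lefty2, a Nodal inhibitor, had 2 members, of which the one at -728 bp from its start site had SOX2 in 6 and H3K4me1 in 6 pluripotent libraries and GATA6 in both nEnd libraries. Dnmt3a, a de novo DNA methyltransferase, and Otx2, a homeobox factor, had 3 and 2 members beside 1 acetylated region each.

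Of 37 primitive endoderm genes 29 (78.4%) had an acetylated region and 11 (29.7%) a member, above the background of 11.7%, while members made up 17.9% of their regions, below the 26.1% over all genes. Dab2, an endocytic adaptor of endoderm, had 4 members and 5 acetylated regions. None of the 4 Dab2 members had SOX2 or H3K4me1 in any pluripotent library, and their H3K27ac was found in 1 to 3 of 6. Of all members, 77.6% had no such SOX2 (background 68.9%) and 40.1% no such H3K4me1 (background 26.9%). H3K27ac was in 1, 2 and 3 of the 6 at 619, 630 and 682 of the 4517 members. Hnf4a, a nuclear receptor of visceral endoderm, had 4 members and 2 acetylated regions, and Gata6 3 of each. Sox7, a primitive endoderm SOX factor, had 2 members, at level percentiles 92.7 and 66.6, and no acetylated region.

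Of the signalling lists, FGF and ERK and TGF-beta had a share of members above the 26.1% over all genes, and Wnt and TCF one below it. In the FGF and ERK list 9 of 34 genes had a member, and there were 25 members (40.3% of the regions) and 27 acetylated regions. Fgf10, a ligand, had 7 members beside 4 acetylated regions, and the ERK inhibitors Spry2 and Spred2 had 6 and 5, each beside 2. Dusp4, a MAP kinase phosphatase, had 2 members beside 4 acetylated regions. In the TGF-beta list 15 of 36 genes had a member (35.1% of the regions), led by Tgfbr3, a co-receptor, and Bmp1, a procollagen protease, with 4 each, and by the receptor gene Acvr1b with 3 and no acetylated region, while the ligand gene Bmp6 had 3 of each. In the Wnt and TCF list 8 of 44 had a member (22% of the regions), among them the receptor gene Fzd4 with 3 and the ligand genes Wnt6 and Rspo3 with 2 members and no acetylated region each, while Tcf7l1, a TCF factor, had 2 members beside 6.

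The remaining lists had 2 to 8 members each, and their share of the assigned regions was 83.3% for Hox clusters, 66.7% for neural transcription factors, 36.4% for ribosomal proteins, 34.8% for trophoblast genes and 28.6% for mesoderm regulators, against 26.1% over all genes. Hox clusters had 5 members at 4 of 39 genes and no acetylated region, and the 2 members at Hoxb3 had no SOX2 and no H3K27ac in any pluripotent library. Of all members, 77.6% had no such SOX2 (background 68.9%) and 12.2% no such H3K27ac (background 6.15%). Neural transcription factors had members at 2 of 30 genes (En1 and Neurog1), mesoderm regulators at 3 of 27 (Snai1, Msgn1 and Foxf2), trophoblast genes at 5 of 22 (22.7%), led by Fgfr2 with 3, and cytosolic ribosomal protein genes at 4 of 40, where the background was 11.7%. Of all genes, Zfp704, a zinc finger gene, had the most members (11, beside 2 acetylated regions). Ank3, which encodes ankyrin-G, followed with 10, and Asns, which encodes asparagine synthetase, Prickle2, a planar polarity gene, and Ccser1 had 8 each. At Zfp704, 9 of the 11 had H3K27ac in at least 5 of 6 pluripotent libraries, while at Asns all 8 had it in 4 or 5. Of all 4517 members, 1577 had it in 4, 198 in 5 and 259 in all 6 (5.73%, background 15.4%). Members of 1 gene are neighbours on the chromosome and are not independent.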

How the data were processed

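CUT&RUN peak lists of 33 libraries were used, and 2 KOSR histone libraries whose labels name different sorted populations were left out. Per the submitters' processing notes, the authors trimmed reads (cutadapt 1.18), aligned them to mm10 (Bowtie2 2.3.4.1), processed them (SAMtools 1.9, Picard 2.9.1, bedtools 2.27.1, deepTools 3.2.0) and called peaks with SEACR against IgG. The deposited signal columns give a peak's summed and highest coverage. Scales differ between libraries, so that signal served only for percentiles within 1 list. The lists are named relaxed for histone marks and stringent for factors, and the methods state the opposite. The source name of the NACL B12 SOX2 library mentions IgG, and its title and antibody field were followed. Read depth is unknown, so that a missing peak does not show absence.

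Overlaps (1 bp), nearest start sites (GENCODE M21) and sequence (GRCm38) were computed in Python 3.11.15 with SciPy 1.17.1 and checked on simulated data. Differences between region classes were averaged over libraries and tested by exact sign flips, and shares of peaks by exact permutation, all two-sided, with Benjamini-Hochberg adjustment over 6 tests and a threshold of 0.05. Binomial intervals (95%, Clopper-Pearson) and p-values cover counting error over regions and the spread between these libraries, which may be technical. Members and gene lists were chosen with earlier results of these data known. Named regions were the 10 highest by H3K4me1 level among all members, with GATA6 in 5 libraries, and with H3K27ac in 6 and SOX2 in at least 5 pluripotent libraries, of which those that carry a comparison are described; up to 4 genes per list and the 8 genes with most members were named, except that 1 gene is not reported here. Alternatives comprised wider windows, whole regions, peak maxima, stronger peaks, equal peak numbers, distal regions and each library left out. Peaks per kb were added after seeing that the classes differ in width.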

Additional observations from a re-analysis of the deposited data

Results flagged for a closer look

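GATA6 at regions with H3K4me1 alone, compared with acetylated regions in the 1 kb window, went opposite ways in the 2 cell types. Both nEnd libraries were lower (mean -17 percentage points) and all 3 DP libraries were higher (mean 0.903 percentage points). The difference between the cell types was not tested. Over whole regions the DP libraries were lower too, with 12.6% against 20.1% in experiment A, 7.31% against 12.3% in A1 and 2.37% against 4.87% in B. The DP lists held 1391 to 8316 peaks and the nEnd lists 24223 and 32510. With equal peak numbers in all 5 lists the mean difference over both cell types went from -6.27 to -0.820 percentage points.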

How the results depend on the processing

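The number of members was 1466 with the stronger 50% of each H3K4me1 list. With 1 nEnd histone library left out it ranged from 5359 to 18461, the highest without the shorter H3K4me1 list; the rule then needs a peak of 1 library only. The other 4 alternatives gave 4199 to 5438. Of the tests, the SOX2 difference became -8.10 points over whole regions and -0.625 in a 2 kb window. The H3K27ac difference became 0.233 by peak maxima. The DP minus pluripotent share of SOX2 peaks became 1.78 points as a share of all peaks. The cause of these reversals was not tested. All other alternatives kept the direction, and none passed the adjusted threshold, but equal peak numbers moved the GATA6 difference to -0.820. With each library left out, the ranges were -8.20 to -3.29 for GATA6, 0.200 to 0.628 for SOX2, -16.5 to -13.5 for H3K27ac, -15.1 to -13.1 for H3K4me1, 5.53 to 7.27 for the GATA6 share and -3.61 to -1.90 for the SOX2 share. The nEnd arm then rests on a lone library in the GATA6 share.

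With experiments A, A1 and B as a replicate block (DP paired with SOX2+), the SOX2 share differed by -1.69 points (exact sign-flip test, p = 0.5), with -0.391 in A, 0.0185 in A1 and -4.69 in B. Same-lettered libraries correlated at 0.0477, 0.0356 and 0.0854 in their deviations from the group means, each library best with its own letter, a hint from the data and not from the design.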

Other observations

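On chromosome X, 147 of 345 kept regions (42.6%) had no nEnd H3K27ac, against 28.0% on the autosomes, and 45 of the 147 (30.6%, 95% interval 23.3 to 38.7%) had no H3K27ac in any of 6 pluripotent libraries, against 11.6% of autosomal members. The same share over all kept regions of chromosome X was not computed. This was seen after the values were known and was not tested.

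The member with the highest level of all, a 1781 bp intergenic region at -164949 bp from the start site of Gdi2 (chr13:3372628-3374408), stood at percentile 99.97 or higher in both nEnd and both 2iLIF H3K4me1 lists. It had peaks in 8 of 33 lists, no GATA6, and 51.3% repeat-masked bases. The other members of that top set had peaks in 6 to 25 lists.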
